A study of Homo sapiens with 16 samples.

Results

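The transcription factor MYC, 6 proteins that share its partners or compete with it (MAX, MXD1, MXD3, MXD4, MNT and MLX), the MYC-binding protein MYCBP, the MYC inhibitor BASP1 and the long non-coding RNA PVT1 were followed in spheroids of 3 prostate cancer cell lines after MED12 knockdown. These are 10 of the 62703 genes in the count table, taken by symbol, and 9 of them passed the filter on low counts. The 10 genes were chosen by their role around MYC with their siCtrl levels and siMED12 effects in these libraries already known, so both are given as descriptions. No p-value is attached to them, and whether a member is among the genes past the all-gene threshold is stated only as part of that description, not as evidence for it. After siMED12 the MYC level fell by 36.4% in LNCaP. It was lower in every siMED12 library of LNCaP and 22Rv1 than in any siCtrl library of the same line. Such a pattern was shared by 6.75% of tested genes in LNCaP and 12.9% in 22Rv1. BASP1 rose 3.21-fold in LNCaP and was also higher in both 22Rv1 siMED12 libraries, on few counts. In PC3 the siCtrl and siMED12 libraries overlapped for both genes.

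The 16 libraries were made by BRB-seq, a 3′ tag method in which each sample receives its barcode early and only transcript ends are read. All cells were grown in the same serum-containing medium and transfected with 25 pmol of pooled siRNAs, either non-targeting (siCtrl) or against MED12 (siMED12), a subunit of the Mediator kinase module. They were kept in 2D for 3 days and as spheroids for another 4 days. LNCaP is androgen-dependent and sensitive to the antiandrogen enzalutamide, 22Rv1 is androgen-responsive but resistant to the drug, and PC3 is insensitive to both. Each line had 3 siCtrl libraries. LNCaP had 3 siMED12 libraries, while 22Rv1 and PC3 had 2 each, numbered 1 and 3. The study's general statement on statistics calls its replicates biological unless noted otherwise, and the labels of these libraries do not say whether they came from separate cultures. The errors measure the spread between these libraries.

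MYC binds DNA only as a dimer with MAX, at E-boxes whose core is CACGTG, and its dimers raise transcription of genes for ribosome production, metabolism and cell division. MXD proteins and MNT also pair with MAX, bind the same sites and recruit SIN3 and histone deacetylases, so that they oppose MYC. MLX is the MAX-like partner of MondoA (MLXIP) and ChREBP (MLXIPL), which respond to glucose, and it can also pair with MNT and some MXD proteins. In prostate cancer MYC is often overexpressed, frequently with gain of the chromosome arm that carries it and PVT1.

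Among the promoters of these genes, an E-box was found in MXD4, MNT and MLX, and these stretches are shown because they are the places where the letters recognised by MYC and its antagonists occur. RefSeq sequences on GRCh38.p14, from 250 bases before to 50 bases after the annotated start, were at hand for 8 of the 10 genes (10 promoters, since MYCBP and MAX have 2 each). They were searched on both strands for CACGTG, which reads the same on either strand. The variant CATGTG was searched in the same way, and so was the variant CACGCG, and no motif found overlapped another. Capitals mark the E-box, and each stretch reads 5′ to 3′ on the strand of its gene. The stretch of MXD4 is at chr4:2262312-2262359 (minus strand), that of MNT at chr17:2401218-2401283 (minus strand) and that of MLX at chr17:42567020-42567085 (plus strand).
MXD4: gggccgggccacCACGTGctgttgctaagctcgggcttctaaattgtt
MNT: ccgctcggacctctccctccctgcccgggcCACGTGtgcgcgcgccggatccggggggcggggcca
MLX: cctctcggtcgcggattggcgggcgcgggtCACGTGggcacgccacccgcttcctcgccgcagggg
Relative to the annotated start, the E-box began at base -238 in MXD4, -193 in MNT and -50 in MLX. CACGTG was present in 7.26% of all 35116 RefSeq promoters of this length, the first variant in 11.1% and the second variant in 11.4%. The promoter of MXD3 held CACGCG, and those of MYCBP, MAX, MXD1 and BASP1 held none of the motifs. None of the 3 genes with an E-box passed the test in any line after siMED12, as given with each gene.

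Total counts ran from 479118 to 993807 per library. Levels are CPM, counts scaled to a common total over the tested genes with TMM factors, and a count of 0 allows up to 3 counts, or 3.15 to 6.22 CPM. The study describes MED12 knockdown in spheroids as highly efficient. In these libraries MED12 itself was low, at 5 to 22 counts per library. In LNCaP it was at 9.94, 12.9 and 11.7 CPM in siCtrl and 6.99, 6.67 and 10.3 in siMED12, in 22Rv1 at 23.4, 16.7 and 19.2 against 7.42 and 8.98, and in PC3 at 28.4, 8.41 and 18.8 against 15.8 and 14.5. The groups were apart only in 22Rv1 (log2 fold change -1.28, SE 0.46) and MED12 did not pass the test in any line (adjusted p = 0.878 in LNCaP, 0.175 in 22Rv1 and 0.987 in PC3). The 9 PC3 markers summed to 5750 to 7430 CPM in PC3 and 64.1 to 170 CPM in the other lines, except 391 CPM in 22Rv1 siMED12 replicate 3, with TGFBI at 0 in every LNCaP and 22Rv1 library. In that library 31 genes restricted to PC3 stood at 5.8% of their PC3 level, against at most 1.12% in the other 22Rv1 libraries. In PC3 siMED12 replicate 3, 12 genes restricted to LNCaP stood at 2.79% of their LNCaP level, against 0.543% to 0.871% in the other PC3 libraries. Androgen-responsive markers summed to 4530 to 6860 CPM in LNCaP and 623 to 664 CPM in 22Rv1, and to 89.7 to 150 CPM in PC3 except 238 CPM in that PC3 library. The epithelial markers EPCAM, KRT8 and KRT18 summed to 1150 to 2650 CPM in all 3 lines. Of the markers of immune, endothelial and fibroblast cells, PTPRC was at 0 in all 16 libraries and the summed level was at most 110 CPM.

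The background for calls was low. By edgeR's quasi-likelihood test with Benjamini-Hochberg adjustment over 10566 genes and a threshold of 0.05, the calls were 44 genes for LNCaP (0.416%), 194 for 22Rv1 (1.84%) and 0 for PC3 (0%). These calls are from a fit with no block for the replicate number. With that number as a block, 117 genes passed in LNCaP, the 44 among them. In PC3, 527 genes had an unadjusted p under 0.05, DESeq2 called 0 genes and limma 1. Of the 9 members tested, MYC and BASP1 passed in LNCaP, MYC passed in 22Rv1 and none passed in PC3. Counted by libraries, the siCtrl and siMED12 groups did not overlap for 3 of 9 members in LNCaP, 5 of 9 in 22Rv1 and 1 of 9 in PC3, where the shares over all tested genes were 12.6%, 26.6% and 20.7%. The members did not move together, with 4 of 9 fold changes below 0 in LNCaP, 5 in 22Rv1 and 6 in PC3, and medians of 0.02, -0.02 and -0.06 on the log2 scale, beside medians of -0.004, 0.006 and -0.038 over all tested genes.

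**Figure D1:**
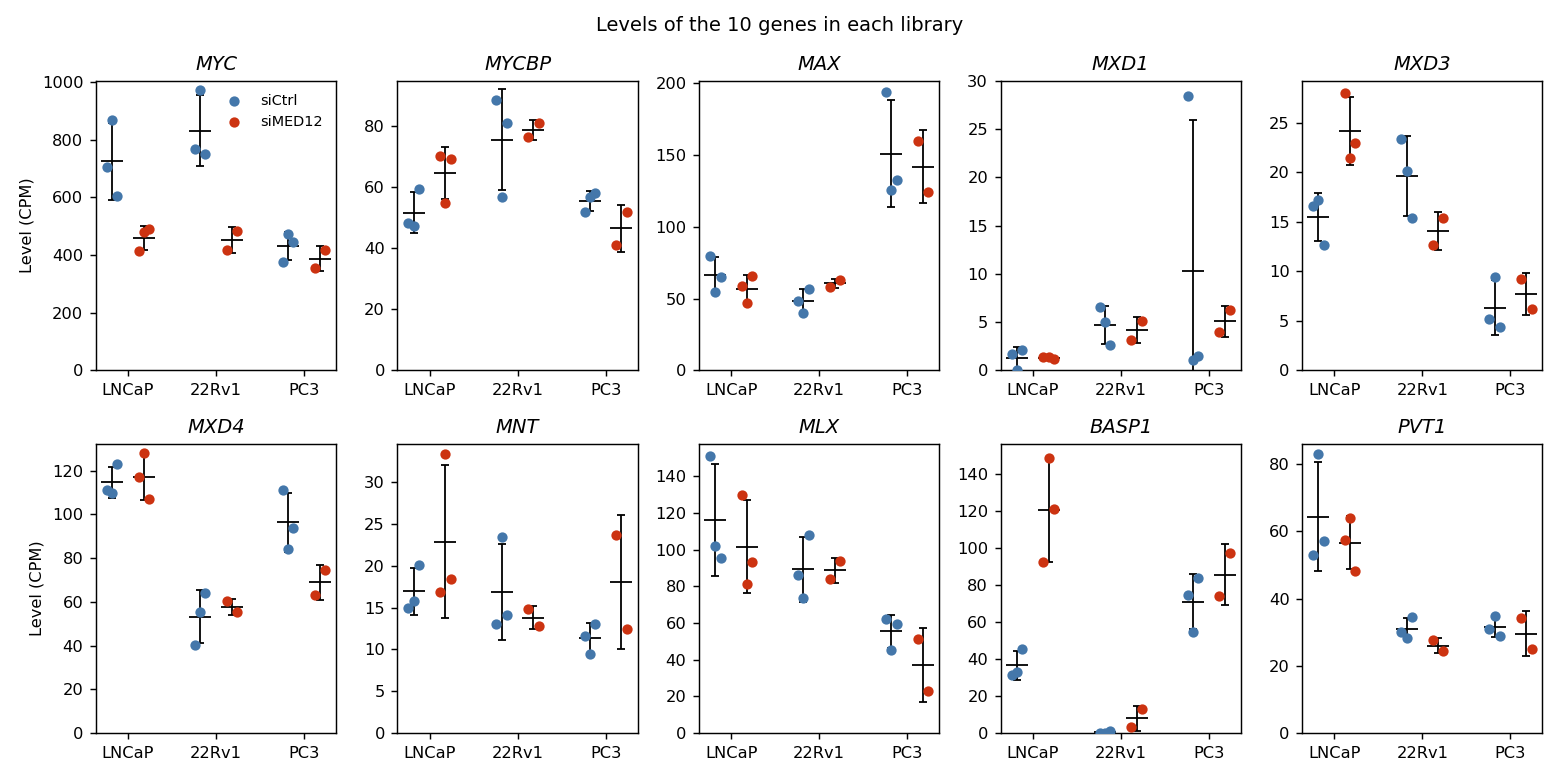
Level in CPM (linear axis from 0, scaled separately for each gene) of the 10 genes in each library, by line, for siCtrl (blue) and siMED12 (red). Bars give the mean and SD of each group of 3 or 2 libraries, and the SD bar of MXD1 in PC3 siCtrl runs below the axis. MYC is lower and BASP1 higher in every siMED12 library of LNCaP and 22Rv1 than in siCtrl. In LNCaP and 22Rv1, 6.75% and 12.9% of tested genes are lower in this way and 5.89% and 13.8% higher. A single PC3 siCtrl library holds MXD1 at 28.4 CPM.

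MYC (ENSG00000136997, chr8:127735434-127742951, plus strand, by Gencode 44 on GRCh38) was at 706, 869 and 604 CPM in the LNCaP siCtrl libraries and at 413, 479 and 489 CPM after siMED12. In 22Rv1 it was at 770, 973 and 751 CPM in siCtrl and at 419 and 484 CPM after siMED12. In both lines the groups were fully apart, siMED12 below, as for 6.75% of tested genes in LNCaP and 12.9% in 22Rv1. The PC3 values were 377, 472 and 446 CPM in siCtrl and 356 and 419 CPM after siMED12, and the groups overlapped.

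The log2 fold change of MYC was -0.65 in LNCaP (SE 0.14, 95% interval -0.93 to -0.38). In 22Rv1 the level fell by 45.7% (-0.88, SE 0.15, -1.19 to -0.57). In PC3 the log2 fold change was -0.17 (SE 0.16, -0.49 to 0.16). MYC was among the genes past the threshold in LNCaP and 22Rv1 and not in PC3. The share of mitochondrial counts was 10.1%, 8.6% and 8.63% in the LNCaP siCtrl libraries and 10.5%, 12.9% and 10.3% after siMED12, with no overlap, and its part in the LNCaP results was not tested. In 22Rv1 it was 5.41% to 7.67% in siCtrl and 5.72% and 6.12% after siMED12. Genes called lower made up 0.369% of those tested in LNCaP and 0.842% in 22Rv1. The effect in PC3 was smaller than that in 22Rv1 by 0.71 on the log2 scale (0.27 to 1.16) and than that in LNCaP by 0.49 (0.06 to 0.91), while 22Rv1 and LNCaP differed by -0.23 (-0.64 to 0.19), and none of these differences passed the threshold over all genes. Genes that passed for a difference between lines were few, at 0.0946% for PC3 against 22Rv1, 0.0284% for PC3 against LNCaP and 0.189% for 22Rv1 against LNCaP.

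Ordered by level, MYC stood highest in 22Rv1 siCtrl (831 ± 123 CPM, SD, n = 3) and LNCaP siCtrl (726 ± 134, n = 3), whose libraries overlapped. A gap followed, and then came LNCaP siMED12 (460 ± 41.4, n = 3), 22Rv1 siMED12 (451 ± 45.8, n = 2), PC3 siCtrl (432 ± 49.4, n = 3) and PC3 siMED12 (387 ± 44.4, n = 2), in which each group overlapped the next. The siMED12 levels of LNCaP and 22Rv1 thus lay beside the siCtrl level of PC3. In bulk RNA, fewer cells of one type and less RNA per cell cannot be told apart.

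The call for MYC in LNCaP was lost when any 1 of 4 libraries was left out, with the same direction each time. The value was -0.65 without siCtrl replicate 1 and -0.49 without siCtrl replicate 2, and it was -0.57 without siMED12 replicate 1 and -0.68 without siMED12 replicate 2. In 22Rv1 it was lost without siMED12 replicate 1, at -0.79. Leaving out the 22Rv1 library with PC3-restricted genes kept the call, and of the 377 MYC counts of that library 17.1 would come from PC3 and 7.84 from LNCaP at the measured rates. MYC overlaps CASC11 on the opposite strand, which held 0 to 2 counts per library.

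MAX (ENSG00000125952, chr14:65006174-65102695, minus strand), without which MYC does not bind DNA, was highest in PC3. It was at 194, 126 and 133 CPM in PC3 siCtrl and 160 and 124 CPM in PC3 siMED12, at 79.5, 54.4 and 64.7 in LNCaP siCtrl and 58.7, 46.7 and 65.5 in LNCaP siMED12, and at 48.1, 40.1 and 56.5 in 22Rv1 siCtrl and 58.3 and 62.8 in 22Rv1 siMED12. Both PC3 groups stood apart from the rest, while the other 4 groups overlapped in order. The line with the least MYC in siCtrl was therefore the one with the most MAX.

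The siMED12 effect on MAX was -0.20 in LNCaP (SE 0.22, -0.64 to 0.25), 0.31 in 22Rv1 (SE 0.25, -0.20 to 0.82) and -0.06 in PC3 (SE 0.20, -0.46 to 0.34), none past the threshold. Both 22Rv1 siMED12 libraries were above all 3 siCtrl libraries, as for 13.8% of tested genes. Of the 49 MAX counts of 22Rv1 siMED12 replicate 3, 5.98 would come from PC3 and 0.715 from LNCaP at the measured rates, and without them it would be at 54.2 CPM, below the highest siCtrl library (56.5 CPM). MAX overlaps FNTB on the opposite strand (6 to 54 counts), and since the strand setting of the counting is not stated, reads of such a pair cannot be told apart.

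MYCBP (ENSG00000214114, chr1:38862493-38873368, minus strand) encodes a small protein that binds MYC and enhances its activity. It was at 48, 47.3 and 59.4 CPM in LNCaP siCtrl and 69.9, 54.7 and 69 after siMED12, at 88.5, 56.8 and 80.8 in 22Rv1 siCtrl and 76.3 and 80.8 after siMED12, and at 51.6, 56.8 and 57.8 in PC3 siCtrl and 40.9 and 51.8 after siMED12. All 6 groups overlapped their neighbours in order of level. Its log2 fold changes were 0.31 in LNCaP (-0.11 to 0.72), 0.04 in 22Rv1 (-0.37 to 0.45) and -0.29 in PC3 (-0.80 to 0.22).

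**Figure D2:**
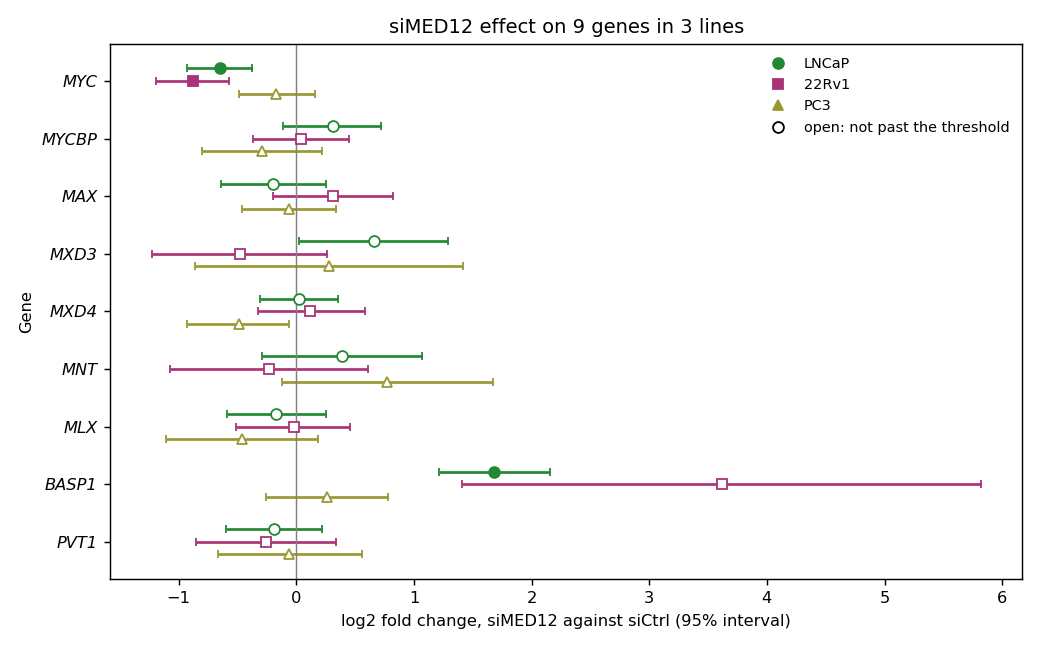
Log2 fold change, siMED12 against siCtrl, of the 9 tested genes in LNCaP (circles), 22Rv1 (squares) and PC3 (triangles), with 95% intervals from the edgeR fit. Filled symbols passed the threshold over all genes. MYC is filled in LNCaP and 22Rv1, BASP1 is filled in LNCaP only and has an interval of 1.41 to 5.82 in 22Rv1, and the other 7 genes are open in each line.

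MXD1 (ENSG00000059728, chr2:69897688-69942945, plus strand), the first described MAX-binding antagonist of MYC, was too low to be tested. It held 1, 0 and 2 counts in LNCaP siCtrl and 1 in each LNCaP siMED12 library, 5, 3 and 2 in 22Rv1 siCtrl and 3 and 4 after siMED12, and 22, 1 and 1 in PC3 siCtrl and 3 and 3 after siMED12. The 22 counts of PC3 siCtrl replicate 1 (28.4 CPM) stood far above the rest of that group (1.05 CPM at the lowest). The summed rate after siMED12 relative to siCtrl was 0.992 in LNCaP (exact 95% counting interval 0.133 to 7.40), 0.885 in 22Rv1 (0.286 to 2.58) and 0.515 in PC3 (0.172 to 1.29), so changes of these sizes were not detectable at this depth. Without PC3 siCtrl replicate 1, a setting chosen after seeing the data, the PC3 ratio rested on 6 counts against 2 and was 4.18 (95% exact interval 0.748 to 42.4). SNRNP27 overlaps MXD1 on the same strand with 5 to 16 counts.

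MXD3 (ENSG00000213347, chr5:177301461-177312757, minus strand) is an MXD protein often associated with proliferating cells. It was at 16.6, 17.2 and 12.7 CPM in LNCaP siCtrl and 28, 21.4 and 23 CPM after siMED12, all above siCtrl. In 22Rv1 it was at 23.4, 20.1 and 15.4 CPM in siCtrl and 12.7 and 15.4 CPM after siMED12, all at or below the lowest siCtrl library, with 12 counts behind both values of 15.4. In PC3 it was at 5.16, 9.46 and 4.33 CPM in siCtrl and 9.23 and 6.22 CPM after siMED12.

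The MXD3 log2 fold change was 0.66 in LNCaP (SE 0.31, 0.02 to 1.29), -0.48 in 22Rv1 (SE 0.37, -1.23 to 0.26) and 0.28 in PC3 (SE 0.56, -0.86 to 1.42), and none passed. The effect in 22Rv1 was below that in LNCaP by 1.14 on the log2 scale (log2 difference -1.14, -2.12 to -0.16), which did not pass over all genes. Libraries entirely above siCtrl were seen for 5.89% of genes in LNCaP, and libraries entirely below it for 12.9% in 22Rv1. Both PC3 groups stood below the other 4. RAB24 overlaps the 3′ end of MXD3 on the same strand (9 to 96 counts) and PRELID1 overlaps it on the opposite strand (131 to 257 counts), so the assignment of 3′ tags to MXD3 is uncertain.

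MXD4 (ENSG00000123933, chr4:2247432-2262109, minus strand), whose promoter holds the E-box printed above, was lowest in 22Rv1. It was at 40.3, 55.2 and 64.2 CPM in 22Rv1 siCtrl and 60.4 and 55.2 after siMED12, at 111, 110 and 123 in LNCaP siCtrl and 117, 128 and 107 after siMED12, and at 111, 84.1 and 93.9 in PC3 siCtrl and 63.3 and 74.7 after siMED12. Only in PC3 did the siMED12 libraries lie wholly below siCtrl, a pattern of 11.9% of tested genes there. Its log2 fold changes were 0.02 in LNCaP (-0.31 to 0.35), 0.12 in 22Rv1 (-0.33 to 0.58) and -0.49 in PC3 (SE 0.21, -0.93 to -0.06), and none passed.

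MNT (ENSG00000070444, chr17:2384073-2401104, minus strand), the most widely expressed antagonist and a partner of both MAX and MLX, was low in every group. It was at 14.9, 15.8 and 20.1 CPM in LNCaP siCtrl and 16.8, 33.4 and 18.4 after siMED12, at 13, 23.4 and 14.1 in 22Rv1 siCtrl and 14.8 and 12.8 after siMED12, and at 11.6, 9.46 and 13 in PC3 siCtrl and 23.7 and 12.4 after siMED12. The groups overlapped in all 3 lines. The log2 fold changes were 0.39 (-0.29 to 1.07), -0.23 (-1.07 to 0.61) and 0.77 (SE 0.44, -0.12 to 1.67), in LNCaP, 22Rv1 and PC3. The LNCaP value was 0.03 without siMED12 replicate 2, the 22Rv1 value 0.03 without siCtrl replicate 2, and the PC3 value 0.15 without siMED12 replicate 1.

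MLX (ENSG00000108788, chr17:42567072-42573239, plus strand), whose E-box lies nearest to its start, was lowest in PC3. It was at 151, 102 and 95.4 CPM in LNCaP siCtrl and 130, 81.4 and 93.1 after siMED12, at 85.9, 73.5 and 108 in 22Rv1 siCtrl and 83.8 and 93.6 after siMED12, and at 61.9, 45.2 and 59.2 in PC3 siCtrl and 51.4 and 22.8 after siMED12. The groups within each line overlapped, and the PC3 groups stood apart from the other lines. The log2 fold changes were -0.17 (-0.59 to 0.25), -0.02 (-0.51 to 0.46) and -0.46 (SE 0.31, -1.11 to 0.18), and the PC3 value was -1.26 without siMED12 replicate 1, which leaves the library at 22.8 CPM (11 counts), and -0.09 without siMED12 replicate 3, which is that library. PSMC3IP overlaps MLX on the opposite strand with 2 to 25 counts.

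The rest of the network, MXI1, MGA, MLXIP, MLXIPL, MYCN and MYCL, gave no call. MXI1, an MXD protein, had log2 fold changes of -0.47 in LNCaP (SE 0.19, adjusted p = 0.543 by edgeR), -0.07 in 22Rv1 (adjusted p = 0.945) and 0.30 in PC3 (adjusted p = 0.978), and its level in PC3 siCtrl (23 ± 2.63 CPM, n = 3) was below those in LNCaP siCtrl (104 ± 21.3, n = 3) and 22Rv1 siCtrl (101 ± 6.75, n = 3). MLXIP, the partner of MLX, had -0.15, -0.05 and 0.44, and MGA, which pairs with MAX, had 0.20, -0.26 and 0.57. MYCN held 0 to 1 counts per library, MYCL 1 to 10 and MLXIPL 0 to 11, too few to be tested. Of the MLX-MondoA target genes, the arrestin family member TXNIP had -0.57 in LNCaP (adjusted p = 0.64 by edgeR), -0.41 in 22Rv1 (adjusted p = 0.591) and -0.30 in PC3 (adjusted p = 0.978), and ARRDC4 had 0.42, 0.42 and 0.53 (adjusted p = 0.878, 0.747 and 0.978 by edgeR).

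BASP1 (ENSG00000176788, chr5:17065598-17276843, plus strand) encodes a membrane-associated protein that also acts in the nucleus as a corepressor, and it is known both to be repressed by MYC and to inhibit transformation by it. Its RefSeq promoter is shown because BASP1 had the highest fold change of the members. It lies at chr5:17216573-17216872 on the plus strand of GRCh38.p14, inside the Gencode interval of the gene rather than at its 5′ end. The capital marks the RefSeq start, and none of the motifs is in this window. The start of the Gencode interval was not searched.
BASP1: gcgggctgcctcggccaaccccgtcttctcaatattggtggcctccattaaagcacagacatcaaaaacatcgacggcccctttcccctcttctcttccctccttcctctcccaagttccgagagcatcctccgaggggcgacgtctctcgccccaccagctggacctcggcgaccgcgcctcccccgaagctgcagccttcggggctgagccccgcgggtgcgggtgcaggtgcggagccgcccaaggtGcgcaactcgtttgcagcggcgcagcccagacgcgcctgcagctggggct

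In LNCaP, BASP1 was at 31.5, 32.9 and 45.6 CPM in siCtrl and at 92.3, 149 and 121 CPM after siMED12. In 22Rv1 it was at 0, 0 and 1.28 CPM in siCtrl (0, 0 and 1 counts) and at 3.18 and 12.8 CPM after siMED12 (3 and 10 counts). In PC3 it was at 74.8, 54.7 and 83.8 CPM in siCtrl and at 73.9 and 97.5 CPM after siMED12. Every siMED12 library was above every siCtrl library in LNCaP and 22Rv1, as for 5.89% and 13.8% of tested genes, and the PC3 groups overlapped. By level, LNCaP siMED12 stood highest (121 ± 28.6 CPM, n = 3), then PC3 siMED12 (85.7 ± 16.7, n = 2) and PC3 siCtrl (71.1 ± 14.9, n = 3). LNCaP siCtrl (36.7 ± 7.75, n = 3) and then both 22Rv1 groups followed. LNCaP thus stood below PC3 in siCtrl. After siMED12 its libraries lay above every PC3 siCtrl library and overlapped those of PC3 siMED12.

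BASP1 rose 3.21-fold in LNCaP (log2 fold change 1.68, SE 0.23, 1.21 to 2.16) and was 1 of the 5 genes called higher there (0.0473%). The value lay between 1.51 and 1.90 when any 1 LNCaP library was left out and between 1.64 and 1.70 under the other tests, scalings and filters. The mitochondrial share, given with MYC, also separated these LNCaP groups, and its part was not tested. In PC3 the log2 fold change was 0.26 (SE 0.26, -0.26 to 0.78), which was below that in LNCaP by 1.42 on the log2 scale (log2 difference -1.42, -2.14 to -0.71) without passing over all genes.

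In 22Rv1 the fitted BASP1 log2 fold change was 3.62 (SE 1.1, 1.41 to 5.82) and did not pass. It rests on 13 counts after siMED12 against 1 in siCtrl, a ratio of rates of 16.4 (exact 95% counting interval 2.47 to 699), and the fitted value depends on how counts of 0 are handled. Of the 10 counts in 22Rv1 siMED12 replicate 3, 2.82 would come from PC3 and 0.396 from LNCaP at the rates measured for restricted genes. With such counts subtracted the value was 3.15, and without that library it was 2.41, where 3 counts stand against 1. It was 5.56 without 22Rv1 siCtrl replicate 3. Without 22Rv1 siMED12 replicate 1 it was 4.35, which rests on siMED12 replicate 3 alone, the library with the PC3-restricted genes. The BASP1 effect in 22Rv1 passed with limma (1.65) and with no filter (3.65). It also passed with the replicate block, a pairing that the 22Rv1 libraries do not establish. It did not pass with the other scaling, the legacy edgeR test, DESeq2 or carried-over counts subtracted. The direction was the same throughout.

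**Figure D3:**
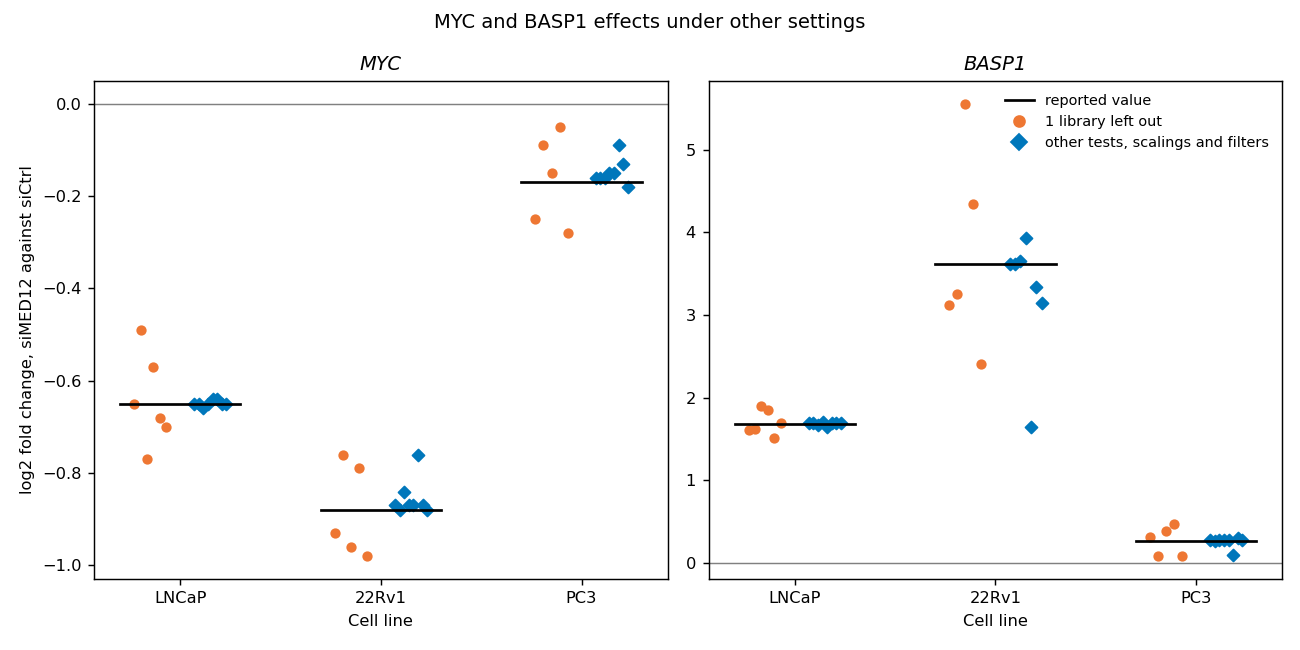
Log2 fold change of MYC (left) and BASP1 (right) in each line as reported (line), with 1 library of that line left out (circles) and under other tests, scalings and filters (diamonds); the vertical axes differ. MYC stays below 0 in each line, between -0.77 and -0.49 in LNCaP and between -0.98 and -0.76 in 22Rv1 with a library left out, and BASP1 in 22Rv1 spreads from 2.41 to 5.56.

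PVT1 (ENSG00000249859, chr8:127794526-128187101, plus strand), a long non-coding RNA whose gene starts 51575 bases after the end of MYC, can be gained together with MYC and has been described as a regulator of its level. It was at 53, 83.1 and 57.2 CPM in LNCaP siCtrl and 57.4, 64.1 and 48.3 after siMED12, at 29.9, 28.4 and 34.6 in 22Rv1 siCtrl and 27.6 and 24.4 after siMED12, and at 31, 34.7 and 28.9 in PC3 siCtrl and 34.3 and 24.9 after siMED12. LNCaP stood apart above the other lines. Only in 22Rv1 were the siMED12 libraries wholly below siCtrl, as for 12.9% of tested genes.

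The log2 fold change of PVT1 was -0.19 in LNCaP (SE 0.20, -0.60 to 0.22), -0.26 in 22Rv1 (SE 0.29, -0.85 to 0.34) and -0.06 in PC3 (SE 0.30, -0.67 to 0.56), and none passed. Its highest library, LNCaP siCtrl replicate 2, was also the LNCaP library with the most MYC, and without it the PVT1 value in LNCaP was 0.04. The order of the lines differed between the neighbours, since MYC in siCtrl was high in both LNCaP and 22Rv1 and PVT1 was high in LNCaP alone.

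Of 85 genes annotated on chromosome 8 within 3000000 bases of the MYC start, other than MYC and PVT1, 8 were tested and none passed in any line (44, 194 and 0 of all genes did). Below 0 were 4 of the 8 in LNCaP, 6 in 22Rv1 and 6 in PC3, beside 50.4%, 48.7% and 55.6% of all tested genes. The lncRNA PCAT1 had -0.81 in LNCaP (SE 0.39, adjusted p = 0.66 by edgeR), -0.25 in 22Rv1 and -0.03 in PC3, and TRIB1, a pseudokinase, had -0.09, -0.41 and 0.07. SQLE, an enzyme of cholesterol synthesis, had -0.28, -0.25 and -0.05. LRATD2 had 0.05, -0.27 and -0.08, NSMCE2 0.01, 0.29 and -0.19, WASHC5 0.37, 0.33 and -0.11, CYRIB 0.27, -0.24 and -0.01, and ASAP1 -0.35, -0.42 and 0.27 in LNCaP, 22Rv1 and PC3.

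Lists of genes that act with or under MYC gave few calls. The MYC targets V2 list, mainly ribosome production and replication genes, had 57 of 58 genes tested. It held 1 call, DUSP2 in 22Rv1, where 1.84% of all genes were called, so that 1 of 57 is near the background. Of its fold changes 28, 45 and 31 of the 57 were below 0 in LNCaP, 22Rv1 and PC3, with medians of 0.002, -0.133 and -0.012. Over all tested genes the shares below 0 were 50.4%, 48.7% and 55.6%. DUSP2, a phosphatase of MAP kinases, was at 79.4, 105 and 115 CPM in 22Rv1 siCtrl and 55.1 and 37.2 after siMED12 (-1.09, SE 0.24, adjusted p = 0.00832 by edgeR). It was not past the threshold without 22Rv1 siMED12 replicate 3 (-0.85) or 22Rv1 siCtrl replicate 3 (-0.97), and had 0.29 in LNCaP and 0.11 in PC3.

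Among 29 of 33 other induced MYC targets tested, LDHA and ENO1, both enzymes of glycolysis, were called lower in LNCaP, where 0.369% of all genes were, and none was called in 22Rv1 or PC3. The list had 18, 21 and 16 of 29 fold changes below 0 (all genes 50.4%, 48.7% and 55.6%) and medians of -0.062, -0.097 and -0.019. LDHA was at 3060, 2940 and 3110 CPM in LNCaP siCtrl and 2300, 1040 and 2170 after siMED12 (-0.72, SE 0.16, adjusted p = 0.0235 by edgeR). ENO1 was at 2970, 3030 and 3330 CPM and then 2450, 1140 and 2310 (-0.66, SE 0.15, adjusted p = 0.04 by edgeR). Both were lowest in LNCaP siMED12 replicate 2, the library with the highest share of mitochondrial counts (12.9%), and neither passed without it (-0.44 and -0.38). Both calls were also lost without any 1 of the LNCaP siCtrl libraries, at -0.73 to -0.70 for LDHA and -0.67 to -0.60 for ENO1, and with lines fitted on their own (-0.72 and -0.66). ENO1 was lost with DESeq2 (-0.66) and limma (-0.74) too, and without 22Rv1 siCtrl replicate 2 or PC3 siCtrl replicate 2, siCtrl replicate 3 or siMED12 replicate 1. In 22Rv1 they had -0.57 and -0.44 and in PC3 -0.14 and -0.12. With the replicate block, where 117 of 10566 genes passed in LNCaP, 4 genes of this list did. They were LDHA (-0.80), ENO1 (-0.73), ODC1 of polyamine synthesis (-0.61) and SHMT2 of serine metabolism (-0.53).

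None of the 10 of 13 MYC-repressed genes that were tested passed in any line. Below 0 were 8, 4 and 6 of them in LNCaP, 22Rv1 and PC3, with medians of -0.115, 0.053 and -0.021. Over all tested genes the shares below 0 were 50.4%, 48.7% and 55.6%, with medians of -0.004, 0.006 and -0.038. With the replicate block the ferritin heavy chain gene FTH1 passed in LNCaP, at -0.49 (adjusted p = 0.0081 by edgeR), among 117 of 10566 genes. The call was thus for a lower level of a gene that the list holds as repressed by MYC. NDRG1, GAS1 and PDGFRB of this list held at most 4 counts and were not tested.

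No call was made among 15 MYC coactivators or 12 SIN3 and histone deacetylase corepressors in any line. The coactivators had 7, 12 and 5 fold changes below 0 and medians of 0.015, -0.129 and 0.096 in LNCaP, 22Rv1 and PC3. The corepressors had 3, 6 and 7 below 0, with medians of 0.095, -0.036 and -0.036. Of all tested genes 50.4%, 48.7% and 55.6% were below 0, with medians of -0.004, 0.006 and -0.038. Of 15 of 16 genes of MYC protein turnover tested, PPP2R5A was called higher in 22Rv1, and 9, 9 and 7 were below 0, with medians of -0.091, -0.120 and 0.019. PPP2R5A, the regulatory subunit that directs protein phosphatase 2A to MYC, was at 36.4, 36.8 and 44.9 CPM in 22Rv1 siCtrl and 95.4 and 64.1 after siMED12 (1.02, SE 0.24, adjusted p = 0.0151 by edgeR). Called higher in 22Rv1 were 0.994% of all genes. PPP2R5A did not pass with DESeq2 (1.03) or limma (0.95), nor without the first (0.96) or second (0.98) 22Rv1 siCtrl library or siMED12 replicate 1 (0.68), and it had -0.09 in LNCaP and -0.40 in PC3.

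**Figure D4:**
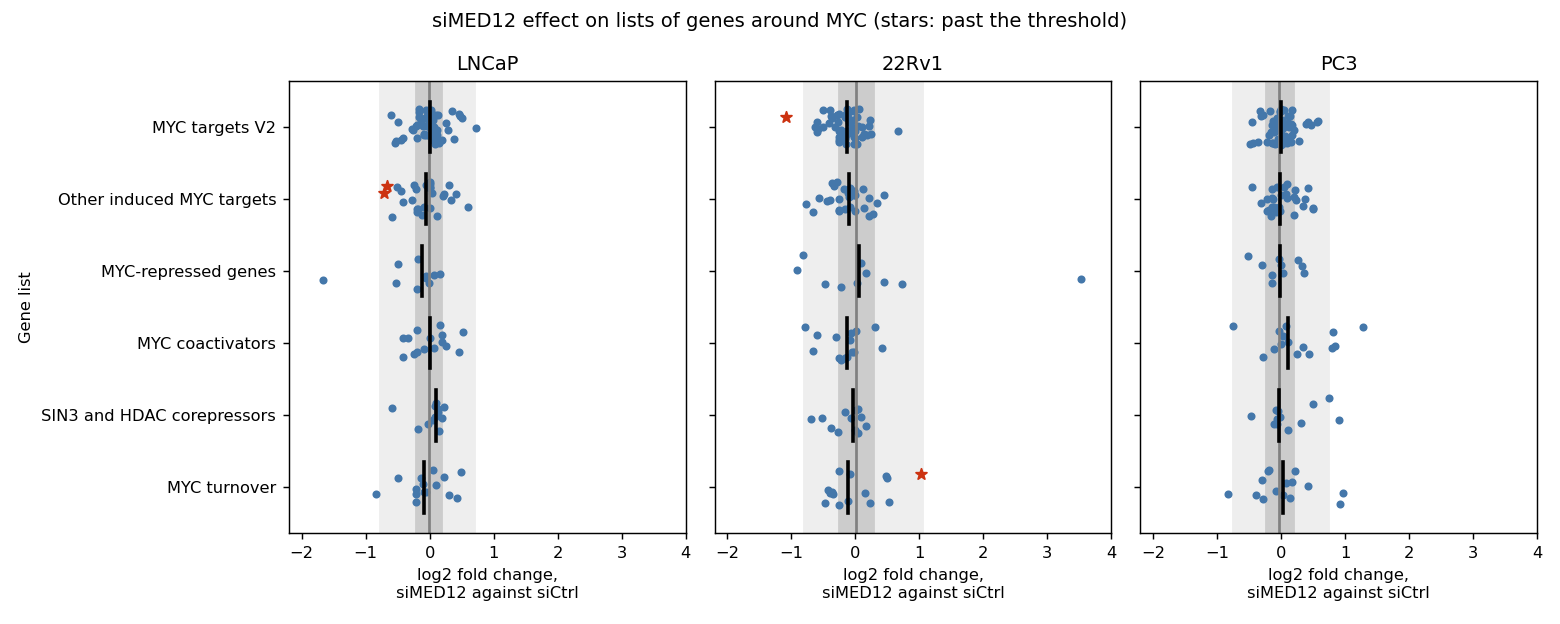
Log2 fold change, siMED12 against siCtrl, of each tested gene of 6 lists (points) with the list median (black bar) in each line. Dark and light bands span the middle 50% and 90% of all tested genes and the grey line is their median. Stars mark the 4 calls, LDHA and ENO1 in LNCaP and DUSP2 and PPP2R5A in 22Rv1, and the list medians lie within the dark band in each line.

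The genes whose levels most resembled those of MYC were sought among the 6713 genes that averaged 20 CPM or more, by Pearson's r of log2 CPM over the 16 libraries, as a description, since the libraries share lines and treatments. They were NOB1 (r = 0.917), which matures the small ribosomal subunit, VPS51 (0.891), RPL32P18 (0.846), PDS5A (0.805) and PFKFB3 (0.804), which activates glycolysis. RPL32P18 is a ribosomal protein pseudogene whose reads may belong to its parent. With the mean of each line subtracted they were C19orf48 (0.899), NOB1 (0.872), FRG1 (0.848), CPOX (0.838) and MRPL10 (0.836).

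Their siMED12 effects in LNCaP, 22Rv1 and PC3 are given without p-values, since likeness to MYC over these libraries partly fixes them. C19orf48 had log2 fold changes of -0.66 (SE 0.14), -0.75 (SE 0.17) and -0.21 (SE 0.21). PFKFB3 was at 87.8, 75.9 and 81.6 CPM in LNCaP siCtrl and 54.6, 21.4 and 31 after siMED12, and had -1.21 (SE 0.28), -1.0 (SE 0.27) and -0.21 (SE 0.45). NOB1 had -0.36, -0.48 and -0.06, and RPL32P18 had -0.11, -0.79 and -0.03. VPS51 had -0.19, -0.28 and -0.09, PDS5A -0.36, -0.19 and 0.09, FRG1 -0.56, -0.69 and -0.45, CPOX -0.41, -0.23 and -0.17, and MRPL10 -0.34, -0.55 and -0.22. Of these 9 genes, C19orf48 and PFKFB3 lay past the all-gene threshold in LNCaP and 22Rv1, RPL32P18 did in 22Rv1, and the other 6 did in no line.

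BASP1 was most like CAMK2N1 (0.956), MBOAT7 (0.956), LAMP2 (0.951), HOXA10 (0.948) and CDC42EP4 (0.944) over the 16 libraries. With line means subtracted it was most like RDH11 (0.853), ITM2B (0.842), ATP6V0B (0.838), BPTF (0.829) and TMEM230 (0.828). Of these, ITM2B alone lay past the all-gene threshold, in 22Rv1 (log2 fold change 0.58, SE 0.13), again as a description. In LNCaP it was at 0.44 and in PC3 at -0.14. Between the members, MYC and BASP1 had r = -0.639 over the libraries and -0.79 with line means subtracted. MYC and MAX had -0.662 and -0.344, and MYC and PVT1 0.249 and 0.43. These values are descriptions too. Subtracting line means keeps the difference between siCtrl and siMED12, so the siMED12 effects already known for these genes partly fix them.

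**Figure D5:**
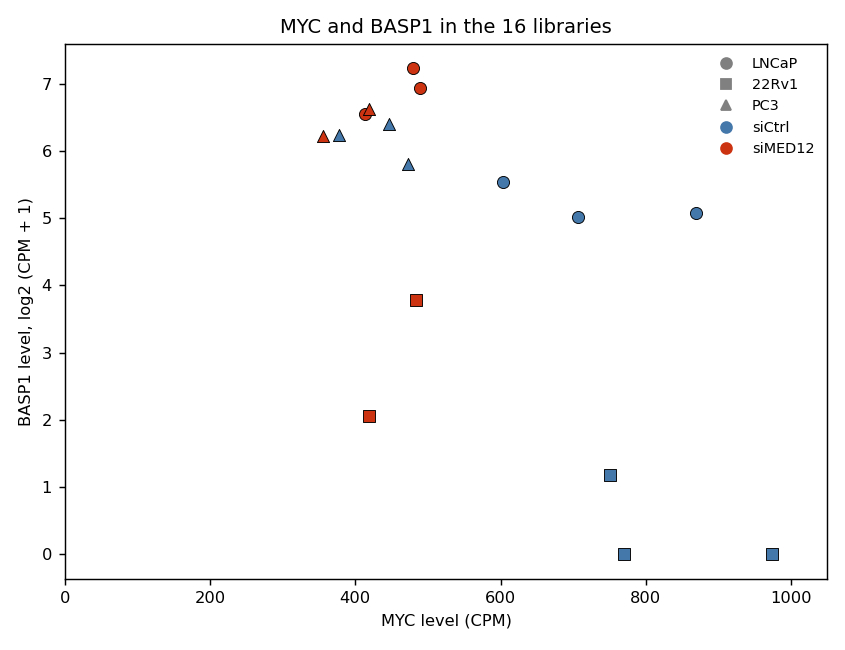
MYC level in CPM against BASP1 level as log2 of CPM plus 1 in the 16 libraries, with the line by shape and the treatment by colour. The LNCaP siMED12 libraries lie left of and above LNCaP siCtrl and close to the PC3 libraries, and the 22Rv1 libraries lie lowest, siMED12 left of and above siCtrl.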

How the data were processed

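Per the labels and methods, the authors sequenced BRB-seq libraries of 16 spheroid samples and aligned and counted reads with STARsolo against Gencode 43 on GRCh38 p13. The deposited counts are raw counts per gene for 62703 genes, and the deposited log2 CPM values were made by the authors with edgeR, which a recomputation matched to 5e-14. Collapse of molecular identifiers and the strand setting are not given in the sources used here.

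Each library was placed by its label in 1 of 6 groups. Counts were tested in R 4.3.3 with edgeR 4.0.16 (quasi-likelihood test, TMM scaling, 2-sided, 1 fit of all libraries), after its filter (minimum count 10, minimum total 15) left 10566 genes. Adjusted p-values are by Benjamini-Hochberg over these genes. The SE is the log2 fold change divided by the square root of F. Same-numbered LNCaP libraries deviated together (r = 0.177, 0.132 and 0.135), but no label says what a number stands for. The reported effects, SEs, intervals and calls are from the fit without a replicate block. The block was run as an alternative. Alternatives were DESeq2 1.42.0, limma 3.58.1 on the deposited log2 CPM, another scaling, no filter, the replicate block, lines fitted on their own, each library left out, carried-over counts subtracted and, chosen after seeing the data, the legacy edgeR test. The test was tried on simulated counts with known changes.

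Genes named were the 10 members, MED12, the network and MLX-MondoA genes, list genes past the threshold in a line, genes within 3000000 bases of MYC, and the 5 genes most like MYC and BASP1. ODC1, SHMT2, FTH1, NDRG1, GAS1 and PDGFRB were named after their values were seen. The members and the lists, written from general knowledge, were chosen with earlier results of these data known. Intervals on counts cover counting error only.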

Additional observations from a re-analysis of the deposited data

Results flagged for a closer look

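The siMED12 effect on MXD3 had opposite signs in LNCaP and 22Rv1, with no overlap of libraries in either line. Its siMED12 libraries were all above the siCtrl libraries in LNCaP (log2 fold change 0.66), as for 5.89% of tested genes. They were all below them in 22Rv1 (-0.48), as for 12.9%, by less than 0.1 CPM at the closest pair of libraries. Neither effect passed the threshold, and the 95% interval in 22Rv1 was -1.23 to 0.26. MXD3 was flagged because these effects differ, so the pattern is a description. The difference between the effects was -1.14 (SE 0.48, 95% interval -2.12 to -0.16) and did not pass the threshold over all genes. It rests on 10 to 20 counts per library, and on a gene whose 3′ end is shared with RAB24. The part of RAB24 in the result was not tested.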

How the results depend on the processing

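No effect of a member changed from a call in one direction to the other under any alternative run. MYC in LNCaP and 22Rv1 and BASP1 in LNCaP lay past the all-gene threshold under all 8 alternatives other than leaving out a library, which describes genes chosen for these effects and does not support them. The counts of genes past the threshold moved more. In LNCaP, 44 genes became 95 with no filter, 23 with DESeq2, 29 with limma and 117 with the replicate block. In 22Rv1, 194 became 87 with DESeq2 and 312 with the block. In PC3, 0 became 9 with no filter, 1 with limma and 20 with the block. For differences between effects, 22Rv1 against LNCaP went from 20 to 68 with no filter, 13 with limma, 71 with the block and 5 with lines fitted on their own, PC3 against LNCaP from 3 to 15 with no filter and 13 with the block, and PC3 against 22Rv1 from 10 to 71 with no filter, 16 with DESeq2 and 73 with the block. Of the members, the block added only BASP1 in 22Rv1 (3.34), and in 22Rv1 182 of the 194 genes remained. In the 22Rv1 lists the block added LDHA (-0.62) and DCTPP1 (-0.70). Same-numbered libraries correlated at 0.19 and 0.253 in 22Rv1 and at 0.117 and 0.079 in PC3, where 2 pairs do not establish pairing. With 1 library left out the counts ran from 12 to 55 in LNCaP (14 without siCtrl replicate 2, 13 without siCtrl replicate 3, 12 without siMED12 replicate 2), from 74 to 220 in 22Rv1 (108 without siCtrl replicate 3, 74 without siMED12 replicate 1, 124 without siMED12 replicate 3), from 0 to 3 in PC3, from 1 to 17 for 22Rv1 against LNCaP, from 1 to 5 for PC3 against LNCaP and from 3 to 31 for PC3 against 22Rv1. The cause of these moves was not tested. Without PC3 siMED12 replicate 1 the effects in PC3 were -0.10 for MYCBP and -0.35 for PVT1. Fitted within their own line, BASP1 in 22Rv1 and MXD3 and MNT in PC3 gave no value, since they failed the filter there. Depth limits MXD1, MNT, MXD3 and BASP1 in 22Rv1, which rest on at most 25 counts per library.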

Other observations

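Several MYC-related genes that are abundant in most cells were at or near 0 in the count table. NOP2 and EIF4A1 had 0 counts in each of the 16 libraries, and NME2 and IMPDH2 had at most 1. Each of these genes overlaps another protein-coding gene on the same strand in Gencode 44 (for EIF4A1 the read-through SENP3-EIF4A1, at most 1 count, and for NME2 the read-through NME1-NME2, 0 counts). The part of this overlap in the low counts was not tested. MYCBP also overlaps a protein-coding gene on the same strand (0 counts in each library) and was counted in all 16.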
